A study of Mus musculus with 9 samples.

Results

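The BCL2 family genes described here are 10 genes of intrinsic, mitochondrial cell death, taken by name from the deposited count table of the murine T15 cell line. They are the anti-apoptotic members Bcl2, Bcl2l1 and Mcl1, the BH3-only members Bcl2l11, Bbc3, Bmf, Pmaip1 and Bid, and the effectors Bax and Bak1. All 10 were among the 35288 genes listed and all 10 passed the filter on low counts, as did 13697 genes in all. The genes were chosen for their known role and not for their values, although earlier results of these data were known when the choice was made.

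T15 is a cell line from a Smarcb1-negative mouse model of peripheral T-cell lymphoma (PTCL), so every library, controls included, comes from cells that lost Smarcb1, a core subunit of the SWI/SNF chromatin remodelling complex. Bulk RNA-seq was available for 9 libraries, namely 3 of control T15 cells, 3 of T15 cells given SAHA (1 µM, 72 h), and 3 of Smarcb1 re-expressing cells (Smarcb1-RE). SAHA, or vorinostat, inhibits histone deacetylases. Smarcb1-RE cells were transduced with a lentiviral plasmid carrying Dox-inducible Smarcb1, selected with an antibiotic and induced with Dox (0.5 µg/µl, 72 h). The protocols mention vehicle-treated cells and cells given a control plasmid, while the study's text speaks of untreated controls, and which of these the 3 control libraries are is not labelled. Any consequences of transduction, selection and Dox cannot be told apart from those of Smarcb1. The study reports strong induction of apoptosis in this cell line at the SAHA dose used for these libraries. For re-expressing cells, it reports reduced growth and unaffected viability. Whether the RNA of the SAHA libraries came from dying or surviving cells was not tested, so their values are not read as regulation in living cells alone. The study's methods call the replicates biological, without saying whether they were separate cultures or clones, and the p-values measure the spread between these libraries.

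Cells commit to intrinsic apoptosis when Bax or Bak1 forms pores in the outer mitochondrial membrane and cytochrome c escapes. Anti-apoptotic members hold the effectors and the BH3-only proteins in check, and BH3-only proteins, induced by growth factor withdrawal or other stress, bind and neutralize the anti-apoptotic members. In T cells, Bcl2l11 (encoding BIM) is a main mediator of death after cytokine loss and of the removal of self-reactive thymocytes, and Bcl2 and Mcl1 sustain survival.

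Library totals ranged from 20900424 to 24941408 counts, and 3 counts, taken as the detection limit, corresponded to 0.12 to 0.144 CPM (counts scaled to library size with edgeR's TMM factors), which covers counting error only. Control replicate 1 stood apart, as the chi-square per gene was 13.4 and 15.0 in the 2 replicate pairs that included it and 2.08 to 4.69 in the other 7. Without it, 29 of the 30 results for the members in the 3 comparisons kept their side of the threshold, the exception being Bmf in SAHA. Smarcb1 itself was counted 2, 5 and 8 times in control, 7, 13 and 3 times in SAHA and 151, 147 and 142 times in Smarcb1-RE (log2 fold change against control 4.89, adjusted p = 6.19e-08, edgeR's quasi-likelihood test). The summed level of 11 T cell markers was 4060 to 4290 CPM in control, 4920 to 4960 CPM in SAHA and 5070 to 5150 CPM in Smarcb1-RE, with Cd4 at 0 throughout and Thy1 at or near the detection limit. Summed markers of B cells, myeloid cells and fibroblasts or epithelium did not exceed 4.48 CPM in any library. Changes are given as log2 fold changes with their standard error (SE), from 1 quasi-likelihood fit to the 9 libraries, and a gene was called at a Benjamini-Hochberg adjusted p under 0.05 over all genes tested.

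SAHA raised 5 of the 10 members and lowered 4, and Smarcb1-RE raised 4 and lowered 5. Bcl2l11 and Bbc3 were higher than control in both treatments, and so was Bmf, whose small change in SAHA lost its call without any 1 of 4 libraries. Bcl2l1, Bid, Bax and Bak1 were lower in both, Bcl2 was slightly higher in both, and Mcl1 was higher in SAHA and lower in Smarcb1-RE. Pmaip1 passed the test in neither. Calls were common among all genes: 32.6% of genes tested were called higher and 34.3% lower in SAHA, and 39.2% higher and 38.6% lower in Smarcb1-RE, so the number of members called was read against a background in which most genes moved. The median log2 fold change of the members was 0.00 in SAHA and -0.29 in Smarcb1-RE, beside 0.00 and 0.01 over all genes tested. When an absolute log2 fold change of at least 1 was also required, 1 member (Bcl2l11) was higher and 0 lower in SAHA, and 3 (Bcl2l11, Bbc3 and Bmf) were higher and 0 lower in Smarcb1-RE. Of all genes tested, 9.85% passed both criteria upward and 2.35% downward in SAHA, against 16.9% upward and 6.78% downward in Smarcb1-RE. Both comparisons share the control libraries, so they are set side by side and not counted as independent.

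**Figure D1:**
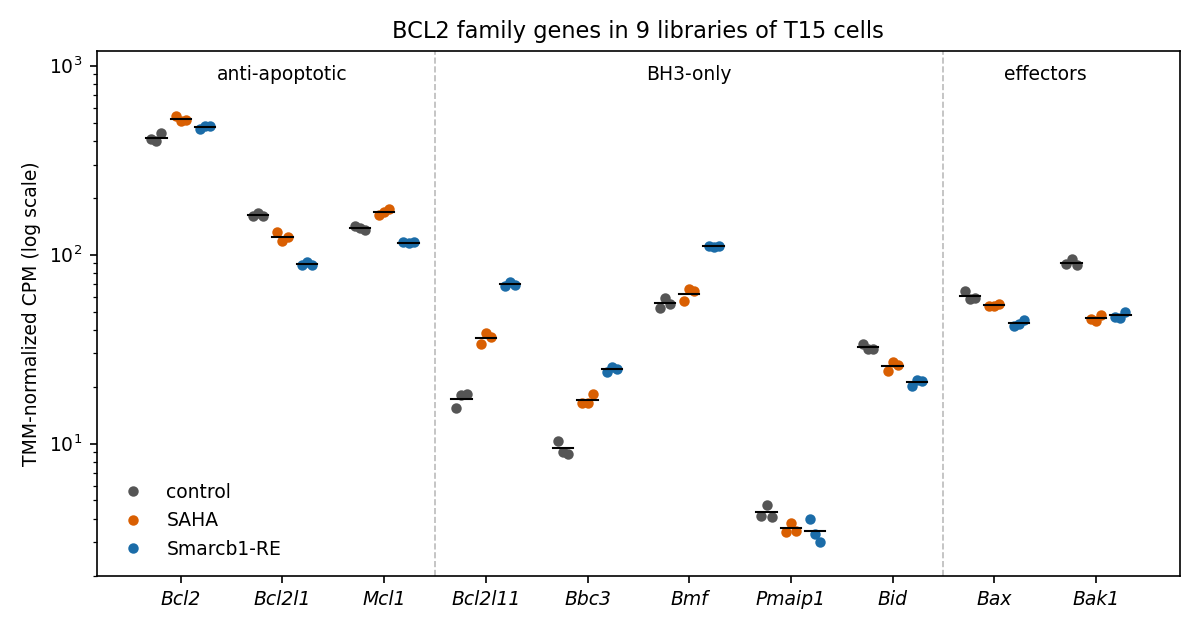
TMM-normalized CPM (log axis) of the 10 BCL2 family genes in each of the 9 libraries, grouped by role, with control in grey, SAHA in orange and Smarcb1-RE in blue; each point is a library and each bar the mean of 3. Bcl2l11 steps up from 15.4 to 18.3 CPM in control to 33.8 to 38.7 in SAHA and 68.6 to 71.5 in Smarcb1-RE, whereas Bak1 is near the same lower level in both treatments.

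Bcl2 (ENSMUSG00000057329, GRCm38 chr1:106538178-106714274, minus strand) encodes the founding anti-apoptotic protein of the family. Its level was 407, 402 and 439 CPM in the control libraries, 540, 508 and 514 CPM in the SAHA libraries and 465, 482 and 478 CPM in the Smarcb1-RE libraries. Each treated library lay above each control library, and the SAHA libraries lay above the Smarcb1-RE libraries. Bcl2 was 1.25-fold higher in SAHA (log2 fold change 0.32, SE 0.04, adjusted p = 2.978e-05) and 1.14-fold higher in Smarcb1-RE (0.19, SE 0.04, adjusted p = 0.001501). Among all genes tested, 30.2% rose at least as far in SAHA and 41.5% in Smarcb1-RE, so the shift in Bcl2 was an ordinary one in size. An antisense gene overlaps Bcl2, and it did not pass the filter on low counts.

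Bcl2l1 (ENSMUSG00000007659, chr2:152780668-152831728, minus strand) encodes BCL-xL and, from a shorter splice form, the pro-apoptotic BCL-xS, which counts per gene cannot separate. Control libraries held 159, 165 and 160 CPM, SAHA libraries 132, 119 and 123 CPM, and Smarcb1-RE libraries 88.6, 91.7 and 88.6 CPM. The 3 groups did not overlap and were ordered control, SAHA, Smarcb1-RE from high to low. Bcl2l1 was 1.30-fold lower in SAHA (log2 fold change -0.37, SE 0.04, adjusted p = 8.434e-06) and 1.80-fold lower in Smarcb1-RE (-0.85, SE 0.04, adjusted p = 2.714e-09). A fall of that size or larger was seen in 21.3% of all genes tested in SAHA and 10.2% in Smarcb1-RE.

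Mcl1 (ENSMUSG00000038612, chr3:95658788-95663176, plus strand) encodes a short-lived anti-apoptotic protein that sequesters BIM, NOXA and BAK. Its level was 142, 138 and 136 CPM in control, 163, 168 and 175 CPM in SAHA, and 116, 115 and 116 CPM in Smarcb1-RE. The treatments moved it in opposite directions, with no overlap between any of the groups. SAHA gave a log2 fold change of 0.28 (SE 0.04, adjusted p = 3.338e-05), whereas Smarcb1-RE gave -0.26 (SE 0.04, adjusted p = 5.201e-05). Of the 10 members, Mcl1 alone was called in opposite directions against control at this threshold. The direct comparison of both treatments, a test of that difference, gave a log2 fold change of -0.54 (SE 0.04, adjusted p = 5.645e-08).

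The BH3-only members carried the largest increases. Bcl2l11, Bbc3 and Bmf encode BIM, PUMA and BMF, and their upstream sequences are shown because these 3 genes had the largest increases in Smarcb1-RE. RefSeq has 2 starts for Bcl2l11, 3 for Bbc3 and 3 for Bmf, and only the start nearest the 5′ end of the GENCODE gene was searched. The 250 bases before that start are given 5′ to 3′ on the gene's strand (GRCm38.p6). They lie at chr2:128125788-128126037 for Bcl2l11, chr7:16309333-16309582 for Bbc3 and chr2:118549687-118549936 for Bmf. Capitals mark matches, on either strand, to 4 motifs: CACGTG (E-box), GTAAACA (forkhead), TGANTCA (AP-1) and GGGCGG (GC box, read as CCGCCC on the other strand).
Bcl2l11: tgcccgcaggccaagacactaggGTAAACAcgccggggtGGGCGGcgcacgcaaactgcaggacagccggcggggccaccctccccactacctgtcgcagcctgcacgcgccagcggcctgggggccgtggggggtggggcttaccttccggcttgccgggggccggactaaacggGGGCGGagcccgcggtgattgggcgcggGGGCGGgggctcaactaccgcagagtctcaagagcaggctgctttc
Bbc3: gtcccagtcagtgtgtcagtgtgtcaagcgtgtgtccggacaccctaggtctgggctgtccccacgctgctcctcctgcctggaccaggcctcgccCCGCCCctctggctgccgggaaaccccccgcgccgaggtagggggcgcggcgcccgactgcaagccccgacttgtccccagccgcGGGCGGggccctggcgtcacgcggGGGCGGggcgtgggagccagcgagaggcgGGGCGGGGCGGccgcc
Bmf: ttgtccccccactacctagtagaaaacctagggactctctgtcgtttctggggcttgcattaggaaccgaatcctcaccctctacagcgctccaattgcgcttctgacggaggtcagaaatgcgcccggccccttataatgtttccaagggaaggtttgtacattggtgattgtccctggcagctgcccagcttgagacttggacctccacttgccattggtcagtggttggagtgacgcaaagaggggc
The Bcl2l11 window held 1 GTAAACA and 3 GGGCGG, the Bbc3 window held 5 GGGCGG, and the Bmf window held none of the 4. Among 32807 RefSeq windows of the same length, GTAAACA was found in 3.16%, GGGCGG in 32.7%, CACGTG in 6.02% and TGANTCA in 6.75%. CpG dinucleotides numbered 24 in the Bcl2l11 window, 27 in the Bbc3 window and 8 in the Bmf window, against a median of 6 over all windows. No searched motif was thus found in all 3 windows, and a match or its absence describes the letters of these windows alone, not those before other starts. The Bbc3 window overlaps no exon of the 4 GENCODE transcripts of Bbc3 and lies within an intron of 1 of them. The Bmf window overlaps an exon of 1 of the 8 GENCODE transcripts of Bmf. Of the other members, RefSeq windows were matched for Bcl2, Bcl2l1, Mcl1, Bid, Bax and Bak1, so 9 of 10 had an entry, and none was matched for Pmaip1. The motifs were picked with the expression values known.

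Bcl2l11 (ENSMUSG00000027381, chr2:128126038-128162547, plus strand) had the largest log2 fold change of the 10 members in both treatments, close in size to that of Bak1 in SAHA. The control libraries held 15.4, 18.05 and 18.3 CPM, the SAHA libraries 33.8, 38.7 and 36.4 CPM, and the Smarcb1-RE libraries 68.6, 71.5 and 69.2 CPM. These were 363 to 444 counts in control and 1605 to 1615 counts in Smarcb1-RE, and the 3 groups lay far apart. Bcl2l11 was 2.10-fold higher in SAHA (log2 fold change 1.07, SE 0.07, adjusted p = 4.829e-08) and 4.04-fold higher in Smarcb1-RE (2.01, SE 0.07, adjusted p = 5.906e-11). Even so, 9.62% of all genes tested rose at least as far in SAHA and 5.94% in Smarcb1-RE. BIM is made in extra-long, long and short forms from this gene, which counts per gene cannot tell apart.

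Bbc3 (ENSMUSG00000002083, chr7:16308393-16318205, plus strand) encodes PUMA, a target of p53 and of forkhead factors. Its level was 10.4, 9.05 and 8.84 CPM in control, 16.3, 16.3 and 18.3 CPM in SAHA, and 23.9, 25.3 and 24.9 CPM in Smarcb1-RE. As for Bcl2l11, control was lowest and Smarcb1-RE highest with no overlap. The increase was 1.80-fold in SAHA (log2 fold change 0.85, SE 0.08, adjusted p = 1.008e-06) and 2.62-fold in Smarcb1-RE (1.39, SE 0.08, adjusted p = 3.768e-09).

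Bmf (ENSMUSG00000040093, chr2:118528757-118549687, minus strand) encodes a BH3-only protein held on the cytoskeleton in healthy cells. It was at 52.0, 59.1 and 54.8 CPM in control, 57.0, 65.7 and 64.0 CPM in SAHA, and 112, 110 and 111 CPM in Smarcb1-RE. The SAHA libraries overlapped the control libraries, and the Smarcb1-RE libraries lay well above both. Bmf rose in Smarcb1-RE (log2 fold change 1.00, SE 0.06, adjusted p = 6.6e-09). In SAHA the log2 fold change was 0.17 (SE 0.06, adjusted p = 0.02349), and this call was lost without control replicate 1 (0.13, adjusted p = 0.06893), control replicate 3 (0.16, adjusted p = 0.06086), SAHA replicate 2 (0.13, adjusted p = 0.1204) or SAHA replicate 3 (0.15, adjusted p = 0.08499). Without control replicate 1, 4 rather than 5 members were called higher in SAHA.

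Pmaip1 (ENSMUSG00000024521, chromosome 18) encodes NOXA, which binds MCL1, and was the least abundant member. Its counts were 97, 112 and 100 in control, 79, 86 and 80 with SAHA and 94, 75 and 70 in Smarcb1-RE, or 3.02 to 4.73 CPM over all libraries. Each treated library lay below each control library by a small margin, and the treatments overlapped each other. The log2 fold change was -0.28 in SAHA (95% interval -0.60 to 0.04, adjusted p = 0.1059) and -0.32 in Smarcb1-RE (95% interval -0.64 to -0.01, adjusted p = 0.05809). Neither passed the threshold, and an increase in SAHA beyond 0.04 on the log2 scale lies outside that interval. The Smarcb1-RE value ranged from -0.46 without Smarcb1-RE replicate 1 (adjusted p = 0.01851), where alone of the alternatives it passed, to -0.17 with scaling by library totals (adjusted p = 0.3077).

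Bid (ENSMUSG00000004446, chr6:120891930-120916853, minus strand) encodes the BH3-only protein that links death receptors to mitochondria once caspase 8 has cleaved it. Its level was 33.6, 31.8 and 31.6 CPM in control, 24.3, 26.9 and 26.1 CPM in SAHA, and 20.1, 21.7 and 21.4 CPM in Smarcb1-RE. The groups did not overlap. Unlike Bcl2l11, Bbc3 and Bmf, Bid was lower in both treatments, with a log2 fold change of -0.33 in SAHA (SE 0.06, adjusted p = 0.0001975), against -0.62 in Smarcb1-RE (SE 0.06, adjusted p = 5.004e-07). Its 3′ end overlaps Bcl2l13 on the other strand, and the strand setting of the counting is not given in the sources used here.

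Both effectors were lower in both treatments, by unequal amounts. Bax (ENSMUSG00000003873, chr7:45461697-45466898, minus strand) was at 64.4, 58.5 and 58.8 CPM in control, 53.6, 53.5 and 54.8 CPM in SAHA, and 41.7, 43.0 and 45.0 CPM in Smarcb1-RE. The groups were ordered control, SAHA, Smarcb1-RE without overlap. Bax changed by -0.17 on the log2 scale in SAHA (SE 0.05, adjusted p = 0.008769), against -0.49 in Smarcb1-RE (SE 0.05, adjusted p = 1.218e-06). The protein-coding gene Gm45808, which was not among the genes tested, overlaps Bax on the same strand, so strand cannot separate reads that they share.

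Bak1 (ENSMUSG00000057789, chr17:27019810-27029009, minus strand), which encodes the effector resident on mitochondria, fell to a similar level in both treatments. The control libraries held 89.1, 94.5 and 87.8 CPM, the SAHA libraries 45.7, 44.7 and 47.7 CPM, and the Smarcb1-RE libraries 46.8, 46.3 and 49.9 CPM. Control lay far above both treatments, which overlapped each other. Bak1 was 1.97-fold lower in SAHA (log2 fold change -0.98, SE 0.05, adjusted p = 5.936e-09) and 1.90-fold lower in Smarcb1-RE (-0.92, SE 0.05, adjusted p = 2.091e-09). In SAHA, 2.93% of all genes tested fell at least as far, the smallest such share of any member in either treatment, and in Smarcb1-RE 8.32% did. Ggnbp1 overlaps Bak1 on the other strand and passed the filter on low counts at a lower level. In bulk samples, less RNA per cell and fewer cells that express a gene cannot be told apart, for Bak1 as for the other members.

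**Figure D2:**
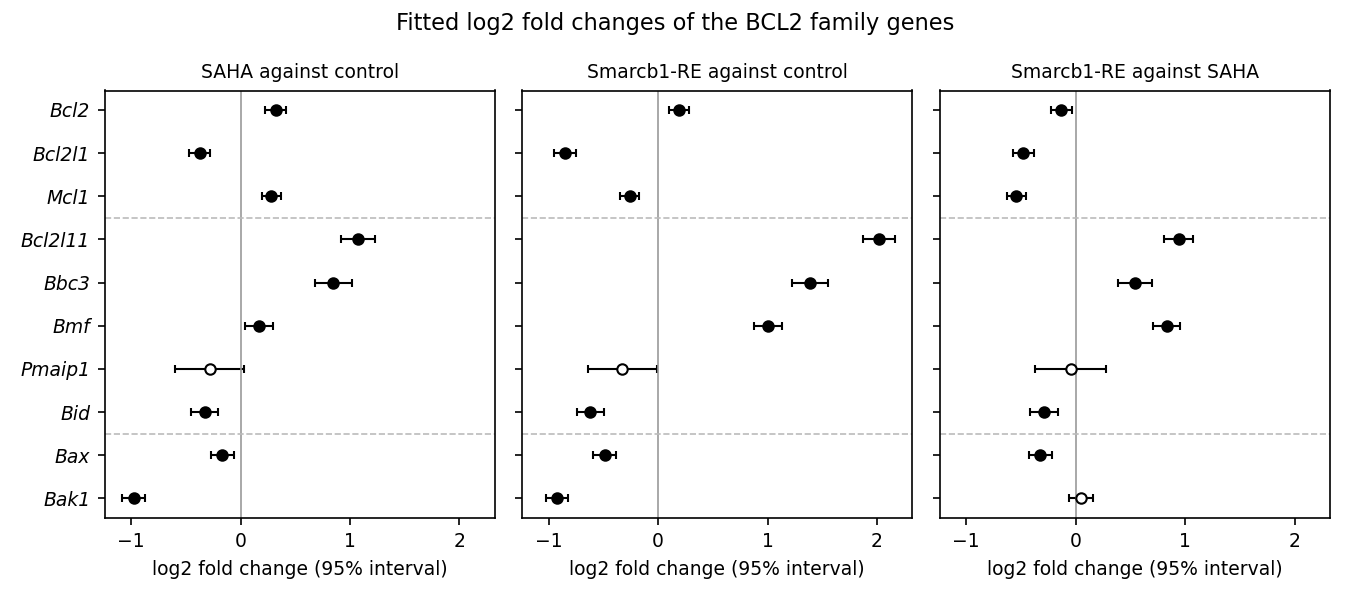
Fitted log2 fold changes with 95% intervals of the 10 genes in the 3 comparisons (edgeR's quasi-likelihood fit), with filled points called at an adjusted p under 0.05 and open points not called. Bcl2l11 is farthest right in each panel, Mcl1 lies on opposite sides of 0 in the first and second panels, and Bak1 is at 0.05 in the comparison of Smarcb1-RE with SAHA; with scaling by library totals alone, Bcl2 and Pmaip1 change sign in that last panel.

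The direct comparison of Smarcb1-RE with SAHA tests whether the treatments differ, and the control libraries enter it only through the filter, the scaling and the shared estimate of spread. Smarcb1-RE was higher for 3 members and lower for 5, in a background of 37.7% of genes called higher and 36.8% lower. With an absolute log2 fold change of at least 1, 0 members passed in either direction, against 11.5% and 8.21% of all genes. The median over the members was -0.09, beside 0.02 over all genes tested.

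The members higher in Smarcb1-RE than in SAHA were the 3 BH3-only genes that rose against control, with log2 fold changes of 0.94 for Bcl2l11 (SE 0.06, adjusted p = 2.221e-08), 0.83 for Bmf (SE 0.06, adjusted p = 3.897e-08) and 0.54 for Bbc3 (SE 0.07, adjusted p = 1.646e-05). In each, all 3 Smarcb1-RE libraries exceeded all 3 SAHA libraries. Lower in Smarcb1-RE were Mcl1, given above, Bcl2l1 (-0.48, SE 0.05, adjusted p = 7.36e-07), Bax (-0.32, SE 0.05, adjusted p = 6.782e-05), Bid (-0.29, SE 0.06, adjusted p = 0.0005812) and Bcl2 (-0.13, SE 0.04, adjusted p = 0.01573), whose sign turned with scaling by library totals. The call for Bcl2 was lost without Smarcb1-RE replicate 1 (-0.13, adjusted p = 0.05295). Bak1 (0.05, 95% interval -0.06 to 0.16, adjusted p = 0.367) and Pmaip1 (-0.04, 95% interval -0.37 to 0.28, adjusted p = 0.8042) did not pass, Pmaip1 changing sign with scaling by library totals or without Smarcb1-RE replicate 3. Scaling by library totals put Bak1 at 0.21 (adjusted p = 0.001716), outside that interval, so its difference between treatments depends on the scaling.

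Scaling bears on this comparison. With library totals in place of TMM factors, the median change over all genes tested, in log2, moved from 0.01 to 0.17 for Smarcb1-RE against control and from 0.02 to 0.18 for Smarcb1-RE against SAHA, and the share of calls that were higher moved from 50.4% to 61.0% and from 50.6% to 62.1%. Under that scaling Bcl2 was at 0.03 (adjusted p = 0.6197) in Smarcb1-RE against SAHA, with Bid at -0.13 (adjusted p = 0.05441) and Bak1 past the threshold, as given above. Bcl2l11, Bbc3, Bmf, Bcl2l1, Mcl1 and Bax kept their direction and call. Against control, that scaling put Mcl1 in Smarcb1-RE at -0.10 (adjusted p = 0.02656) and Bcl2 at 0.35, both on the same side of the threshold.

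Levels of different members were compared per length, in TPM (counts per kilobase of merged exons, scaled to the same sum in every library). In control cells Bcl2 led at 119 ± 10.4 TPM (SD, n = 3), followed by Mcl1 at 106 ± 2.56, Bax at 100.4 ± 1.53, Bak1 at 98.4 ± 6.36 and Bcl2l1 at 92.2 ± 5.44 TPM. Bax and Bak1 did not differ beyond their spread, nor did Bak1 and Bcl2l1. A gap separated these from Bmf at 27.6 ± 2.76, Bid at 23.8 ± 0.386, Bbc3 at 11.6 ± 0.449, Bcl2l11 at 5.64 ± 0.769 and Pmaip1 at 4.15 ± 0.435 TPM. In control cells, then, each anti-apoptotic or effector transcript was more abundant per length than each BH3-only transcript.

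In SAHA the order was Bcl2 at 149 ± 6.02 TPM, Mcl1 at 129 ± 3.68, Bax at 89.8 ± 1.12, Bcl2l1 at 71.2 ± 4.49 and Bak1 at 50.1 ± 1.61 TPM. Below them came Bmf at 31.0 ± 2.08, Bbc3 at 20.9 ± 1.31, Bid at 19.0 ± 0.831, Bcl2l11 at 11.9 ± 0.721 and Pmaip1 at 3.41 ± 0.189 TPM, and no 2 neighbours overlapped. With this length, Bak1 lay below Bcl2l1 and Bbc3 above Bid, unlike in control. With the longest transcript neither place changed, as Bak1 was below Bcl2l1 in control too (79.2 and 131.4 TPM) and Bbc3 stayed below Bid in SAHA (19.6 and 22.4 TPM).

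In Smarcb1-RE the order was Bcl2 at 149 ± 4.72 TPM, Mcl1 at 97.2 ± 0.699 and Bax at 78.8 ± 3.58 TPM, with Bmf next at 60.6 ± 0.312 TPM, ahead of Bak1 at 56.9 ± 2.37 and Bcl2l1 at 56.1 ± 1.77 TPM. Bak1 and Bcl2l1 overlapped. Bbc3 at 33.4 ± 1.38 and Bcl2l11 at 24.96 ± 0.855 TPM both exceeded Bid at 17.1 ± 0.905 TPM, and Pmaip1 remained last at 3.62 ± 0.500 TPM. A BH3-only transcript, Bmf, was thus as abundant per length as an effector and an anti-apoptotic one. The order depends on the length used. With the longest transcript in place of merged exons, Bcl2l1 led in control at 131.4 TPM and overlapped Bcl2 at 120.9 TPM, and in Smarcb1-RE Bmf at 55.6 TPM lay above Bak1 at 46.5 TPM but below Bcl2l1 at 81.3 TPM.

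**Figure D3:**
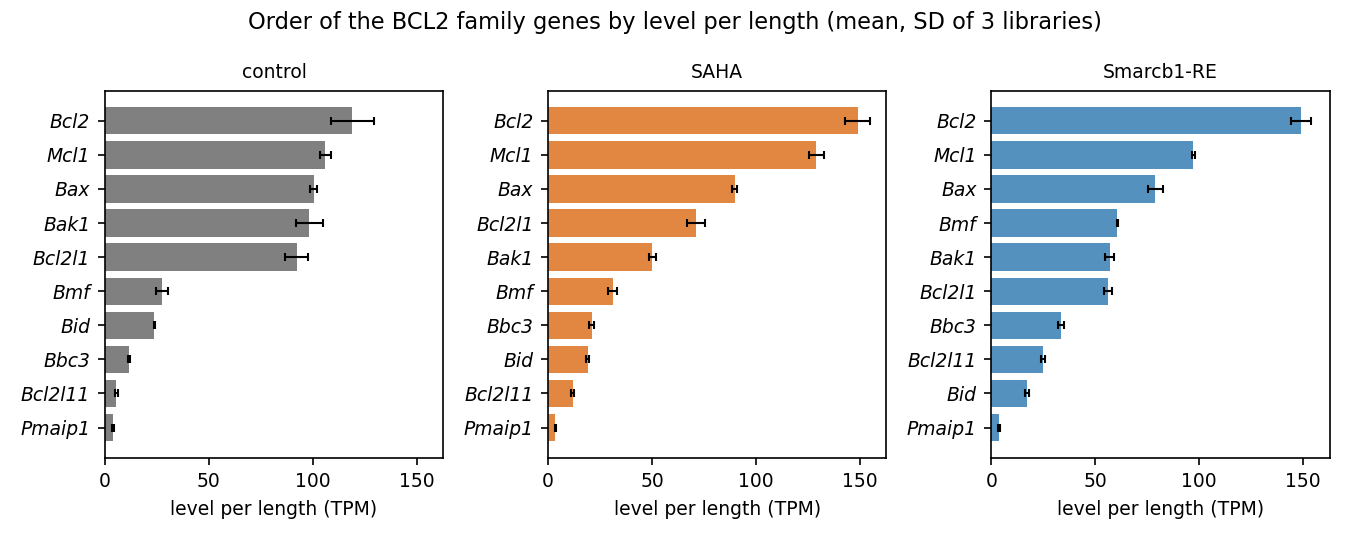
Level per length in TPM of each member in each group, ordered from high to low within a group; bars start at 0 and show the mean of 3 libraries, with the SD as error bar. With this length, Bcl2 leads in each group and Pmaip1 is last, while Bmf climbs from the sixth place in control and SAHA to the fourth in Smarcb1-RE.

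Ratios of 1 member to another within a library do not depend on the scaling between libraries, and they were described without a test. The log2 ratio of Bcl2 to Bcl2l11, per length, was 4.53, 4.29 and 4.40 in control, 3.81, 3.53 and 3.63 with SAHA, and 2.57, 2.57 and 2.60 in Smarcb1-RE, so the mean ratio went from 21.2 through 12.6 to 5.97. The groups did not overlap. The log2 ratio of Bcl2l1 to Bcl2l11 was 4.18, 4.00 and 3.94 in control, 2.78, 2.42 and 2.57 with SAHA, and 1.18, 1.17 and 1.16 in Smarcb1-RE. In mean ratios this was 16.4, 6.01 and 2.25, the widest of the 5 pairs in log2 terms.

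Other pairs went the opposite way or hardly moved. The log2 ratio of Bcl2 to Bax was 0.12, 0.24 and 0.36 in control, 0.79, 0.71 and 0.69 with SAHA, and 0.94, 0.95 and 0.87 in Smarcb1-RE, without overlap, and the mean ratio went from 1.18 to 1.66 and 1.89. For Mcl1 to Pmaip1 the mean ratio was 25.7 in control, 37.9 in SAHA and 27.0 in Smarcb1-RE, with Smarcb1-RE overlapping control and SAHA above both. For Bcl2 to Mcl1 it was 1.12, 1.15 and 1.53, with SAHA overlapping control and Smarcb1-RE above both. Relative to Bcl2l11, then, transcripts of both Bcl2 and Bcl2l1 were less abundant in treated cells, while relative to Bax, Bcl2 was more abundant.

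**Figure D4:**
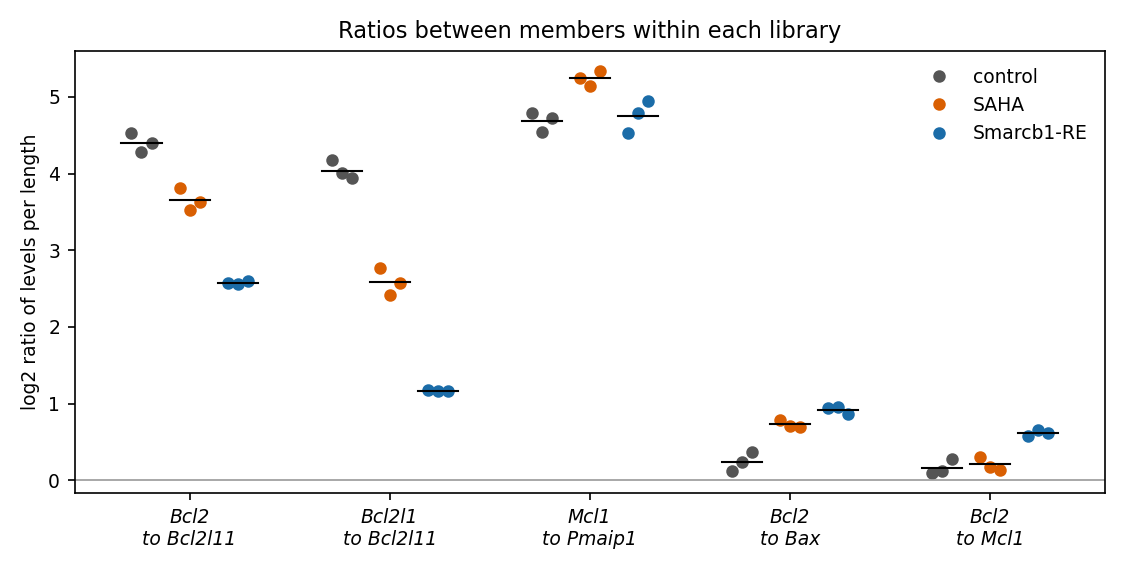
Log2 ratio of levels per length for 5 pairs of members in each library (control grey, SAHA orange, Smarcb1-RE blue; bars, mean of 3), with 0 marking equal levels. Ratios over Bcl2l11 step down from control to SAHA to Smarcb1-RE, and Bcl2 over Bax steps up.

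Genes with a pattern like that of 3 members were sought among 9596 genes by the root mean square difference of log2 CPM over the 9 libraries, each gene centred on its control mean. Among those nearest to Bcl2 were a gene without a symbol (ENSMUSG00000115981) at 0.0415 and Cflar, encoding the caspase 8 inhibitor FLIP, at 0.0459. For Bcl2l11 they were Mpp2 at 0.119, Dmxl2 at 0.121 and Klhl24 at 0.129, and Mpp2 had log2 fold changes of 1.01 in SAHA and 1.89 in Smarcb1-RE. For Bbc3 they were Samd9l at 0.0767, Dnase2a, encoding a lysosomal nuclease, at 0.0853 and Zfp945 at 0.118.

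The rest of the BCL2 family was measured as a list of 16 genes, of which 10 passed the filter on low counts. SAHA raised 5 and lowered 3 of them, and Smarcb1-RE raised 4 and lowered 3, with medians of -0.01 and 0.04. Over all genes tested, 32.6% were called higher and 34.3% lower in SAHA, against 39.2% and 38.6% in Smarcb1-RE. The medians over all genes tested were 0.00 and 0.01, so counts in this list and those below are read against that background. Bnip3, a mitophagy receptor related to the BH3-only proteins, was 5.35 ± 0.609 CPM (SD, n = 3) in control, 11.6 ± 0.667 CPM in SAHA and 11.1 ± 2.28 CPM in Smarcb1-RE (log2 fold changes 1.12 and 1.05, adjusted p = 1.721e-05 and 1.977e-05). Bad, a BH3-only gene whose protein is silenced by survival kinases, was lower in both (-0.46 and -0.62, adjusted p = 3.396e-05 and 1.438e-06). Bcl2l2, encoding the anti-apoptotic BCL-w, was lower in SAHA (-0.43, adjusted p = 8.697e-06) but higher in Smarcb1-RE (0.14, adjusted p = 0.02261), and the direct difference was 0.57 (adjusted p = 4.189e-07). Bcl2a1d, of the anti-apoptotic A1 genes, was at 0.40 in SAHA (adjusted p = 2.248e-05) and -0.16 in Smarcb1-RE (adjusted p = 0.01514). Its value is uncertain because the A1 genes are near-identical copies that share reads.

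Downstream of mitochondria, 18 of 18 genes of the apoptosome, the caspases and their inhibitors (IAP) were tested, and SAHA raised 4 and lowered 8 while Smarcb1-RE raised 9 and lowered 6. The median log2 fold change was -0.15 in SAHA and 0.09 in Smarcb1-RE, beside 0.00 and 0.01 over all genes tested. Of all genes tested, 32.6% were called higher and 34.3% lower in SAHA, against 39.2% and 38.6% in Smarcb1-RE. Casp9, the initiator caspase of the apoptosome, was at 18.3 ± 1.52 CPM (SD, n = 3) in control, and both treatments raised it, SAHA to 29.4 ± 1.5 CPM (log2 fold change 0.69, adjusted p = 3.466e-06) and Smarcb1-RE to 42.0 ± 2.82 CPM (1.20, adjusted p = 7.576e-09). Apaf1, the scaffold that activates it, rose in both (0.74 and 0.21, adjusted p = 5.703e-08 and 0.001791). Cycs, encoding cytochrome c, fell in Smarcb1-RE (-1.33, adjusted p = 1.181e-08), and its value in SAHA was -0.17 (adjusted p = 0.07197). Birc2, encoding the inhibitor cIAP1, was higher in SAHA (0.55, adjusted p = 1.837e-06) and in Smarcb1-RE (1.08, adjusted p = 1.649e-09), and Dffb, a nuclease that cuts DNA in apoptosis, was at -0.79 and 0.33 (adjusted p = 2.142e-05 and 0.007376).

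The death receptor list, the extrinsic arm that reaches mitochondria through Bid, had 8 of 10 genes tested. SAHA raised 4 and lowered 3, and Smarcb1-RE raised 2 and lowered 5, with medians of 0.18 and -0.38. Beside this, 32.6% of all genes tested were called higher and 34.3% lower in SAHA, against 39.2% and 38.6% in Smarcb1-RE. Their medians were 0.00 and 0.01. Fas, the receptor for Fas ligand, was higher in SAHA (log2 fold change 1.20, adjusted p = 3.443e-07) and lower in Smarcb1-RE (-0.67, adjusted p = 0.0001114), at 6.06 ± 0.435 CPM (SD, n = 3) in control, 13.9 ± 0.362 CPM in SAHA and 3.79 ± 0.487 CPM in Smarcb1-RE. Fadd, its adaptor, was lower in both (-1.40 and -0.41, adjusted p = 1.467e-08 and 0.0001684). The ligand gene Tnfsf10 (TRAIL) went the opposite way to Fas, at -0.54 in SAHA (adjusted p = 2.014e-06) and 0.82 in Smarcb1-RE (adjusted p = 9.718e-09).

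Regulators of the members, 18 of 19 tested, included transcription factors, ubiquitin ligases and channels known to act on BCL2 proteins or genes. SAHA raised 9 and lowered 6, and Smarcb1-RE raised 5 and lowered 11, with medians of 0.15 and -0.23. All genes tested had medians of 0.00 and 0.01. Among them, 32.6% were called higher and 34.3% lower in SAHA, against 39.2% and 38.6% in Smarcb1-RE. Ddit3, encoding the stress factor CHOP, a known activator of Bcl2l11, was lower in SAHA (log2 fold change -1.04, adjusted p = 1.077e-06) and higher in Smarcb1-RE (2.05, adjusted p = 1.454e-10), at 9.04 ± 0.654 CPM (SD, n = 3) in control, 4.39 ± 0.517 CPM in SAHA and 37.4 ± 1.33 CPM in Smarcb1-RE. A short second entry of Ddit3 can share its reads. Trp53, encoding p53, a known activator of Bbc3, was lower in both (-0.56 and -0.97, adjusted p = 1.279e-06 and 4.315e-09). Of the 3 forkhead genes, Foxo4 was higher in both (0.51 and 0.44, adjusted p = 0.0001093 and 0.0002434). Foxo1 was higher in SAHA (0.45, adjusted p = 6.82e-06) and lower in Smarcb1-RE (-0.17, adjusted p = 0.008855), with Smarcb1-RE overlapping control. Foxo3, named after its values were seen, was higher in both (0.19 and 0.43, adjusted p = 0.02538 and 6.015e-05), with SAHA overlapping control. Whether these regulators had a part in the values of Bcl2l11 or Bbc3 was not tested.

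The list of interleukin and STAT inputs held 11 receptor, STAT and kinase genes of signalling that maintains Bcl2 in T cells. SAHA raised 7 and lowered 2 of them, and Smarcb1-RE raised 6 and lowered 3, with medians of 0.36 and 0.17. Over all genes tested, 32.6% were called higher and 34.3% lower in SAHA, against 39.2% and 38.6% in Smarcb1-RE. The medians over all genes tested were 0.00 and 0.01. Il7r, encoding the interleukin 7 receptor chain, was higher in SAHA (log2 fold change 0.43, adjusted p = 5.937e-06) and lower in Smarcb1-RE (-2.35, adjusted p = 1.012e-11), at 36.4 ± 0.239 CPM (SD, n = 3) in control, 49.2 ± 2.17 CPM in SAHA and 7.10 ± 0.435 CPM in Smarcb1-RE. Il2rg, the common chain of these receptors, was higher in both (0.87 and 0.86, adjusted p = 1.688e-09 and 2.492e-10), as was Pim1, a survival kinase gene (1.20 and 1.16, adjusted p = 1.739e-08 and 7.913e-09). Stat5a was lower in both (-0.46 and -1.01, adjusted p = 1.167e-06 and 4.824e-10). The lists were chosen with earlier results of these data known.

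**Figure D5:**
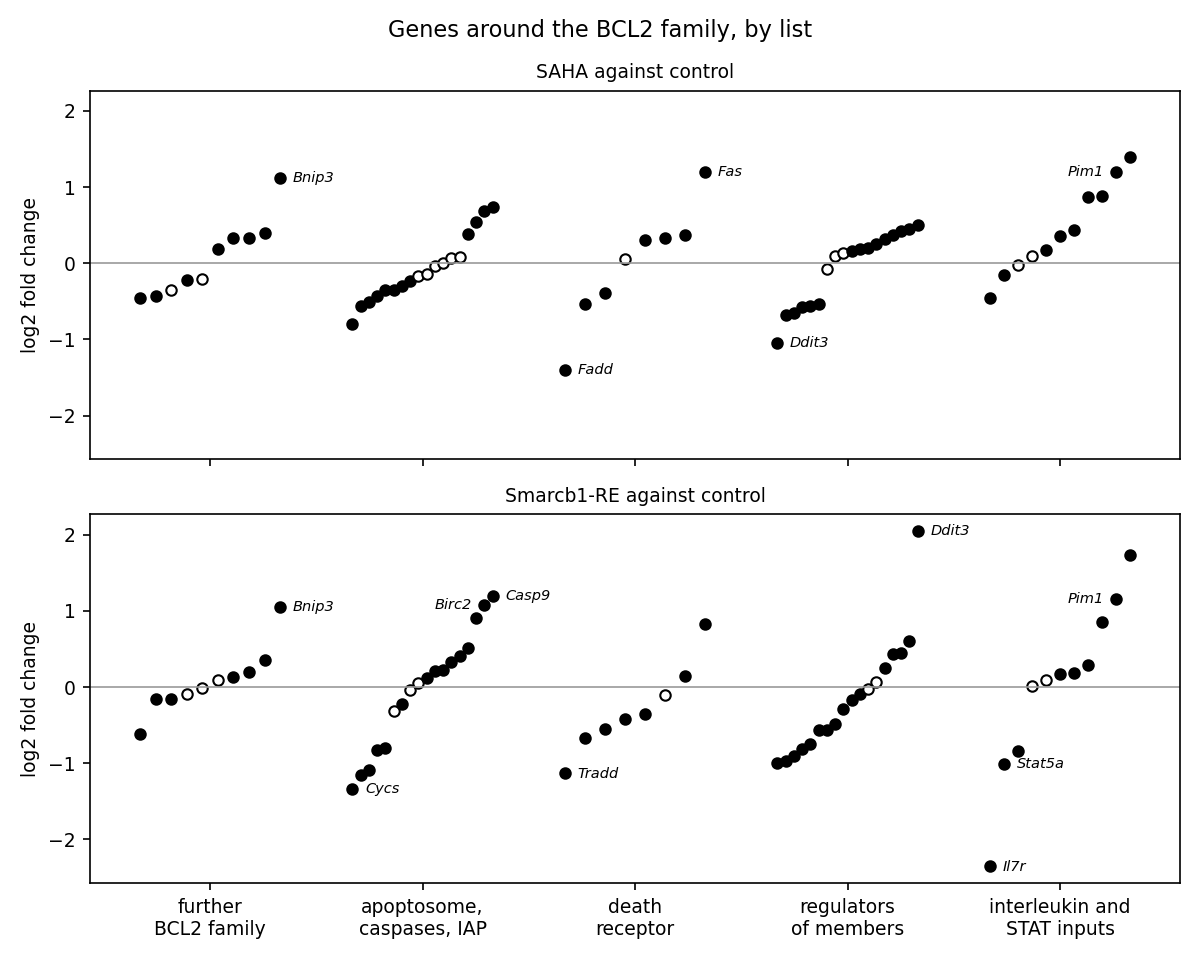
Log2 fold change of the tested genes of 5 lists around the BCL2 family, in order of size within each list, for SAHA against control (top) and Smarcb1-RE against control (bottom); filled points were called at an adjusted p under 0.05. Labels give genes named by the stated rule that moved by at least 1, among them Ddit3 at -1.04 and 2.05 and Bnip3 at 1.12 and 1.05.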

How the data were processed

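RNA-seq of T15 cells was analysed in 9 libraries, 3 per group, with groups and replicate numbers taken from the sample labels. The authors deposited estimated counts per Ensembl gene, neither normalized nor pooled, with fractional values in 52.4% of entries above 0. Per the labels' processing notes, Salmon 0.14.1, FastQC 0.11.8, MultiQC 1.7, DESeq2 1.22.2 and GRCm38 were used. The library kit was directional and reads were single-end. How reads shared by similar genes were divided affects paralogs. Names, lengths and coordinates came from GENCODE M21 (99.5% of identifiers matched) and upstream sequences from RefSeq (GRCm38.p6).

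Counts were rounded and tested in R 4.3.3 with edgeR 4.0.16 (TMM, filterByExpr with a minimum count of 10, glmQLFTest, Benjamini-Hochberg adjustment over 13697 genes, adjusted p under 0.05), in a single fit to 3 groups. SE was the absolute log2 fold change over the square root of F. Tested on simulated counts for SAHA against control (13399 genes), the fit recovered 71.1% of 90 genes changed by 0.5 and 78.8% of 104 changed by 1 on the log2 scale, with 3.31% false calls. Only 200 genes were changed in the simulation, far fewer than were called in the data. It therefore does not test the scaling under wide change or give the error rate of the reported calls.

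The members, lists and motifs were chosen with earlier results of these data known. Named genes were the 10 members, Smarcb1, up to 2 genes per list, comparison and direction with the largest called change (average log2 CPM of at least 1), and the 3 genes most alike to Bcl2, Bcl2l11 and Bbc3 (average log2 CPM of at least 3). Values of a named gene in the other comparisons are given beside its own, and some genes named by the rule are not reported here. Alternatives were DESeq2 1.42.0, other scalings and filters, separate fits, a replicate block, stricter thresholds, another length and leaving out each library.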

Additional observations from a re-analysis of the deposited data

How the results depend on the processing

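For the 10 members in 3 comparisons, 497 of 510 log2 fold changes under 17 alternatives kept their direction and their side of the threshold, counting the minimum change apart. DESeq2, median-ratio factors, no filter, at least 10 counts in every library and separate fits changed none of the 30 calls. When an absolute log2 change of at least 1 was required, the members called were 1 higher and 0 lower in SAHA, 3 higher and 0 lower in Smarcb1-RE against control, and 0 higher and 0 lower in Smarcb1-RE against SAHA. With library totals, 3 rather than 5 members were lower and 4 rather than 3 higher (Bak1 added, at 0.21) in Smarcb1-RE against SAHA, and Bcl2 and Pmaip1 turned to 0.027 and 0.11. Without Smarcb1-RE replicate 3, Pmaip1 was at 0.046 there (range without 1 library -0.18 to 0.046), and the log2 ratio of Mcl1 to Pmaip1, Smarcb1-RE minus control, turned from 0.07 to -0.022 (range -0.022 to 0.18). The ratio of Bcl2 to Mcl1, SAHA minus control, turned from 0.04 to -0.0072 without SAHA replicate 1 (range -0.0072 to 0.098). The cause was not tested. The labels do not say whether the replicate numbers pair the libraries. The mean correlation of deviations was -0.00342 for same-numbered and 0.00169 for differently numbered libraries, and 3 of 9 libraries correlated best with their own number. These values cannot exclude a shared culture or day. With the replicate block the members called were 5 and 4, 4 and 5, and 3 and 5, as without it. Pmaip1, at 70 to 112 counts, had the widest intervals of the members.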

Other observations

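Not all of the remaining family genes could be tested. Of 16 further BCL2 family genes, 6 did not pass the filter on low counts, among them the BH3-only genes Hrk and Bik and the effector gene Bok, which were counted at most 2 times in any library, and no change is given for them. Bcl2l15 and Bnip3l, a mitophagy receptor gene, were higher than control in both treatments, with log2 fold changes of 0.34 and 0.35 for Bcl2l15 (adjusted p = 0.0002588 and 0.0001373, edgeR's quasi-likelihood test) and 0.19 and 0.20 for Bnip3l (adjusted p = 0.003471 and 0.001517). Bcl2l13, which overlaps Bid, was lower in both (-0.22 and -0.16, adjusted p = 0.002799 and 0.01702). Of the inhibitors of caspases, Birc3 was higher in Smarcb1-RE (0.51, adjusted p = 3.376e-05) and at 0.01 in SAHA (adjusted p = 0.9181), whereas Birc5, encoding survivin, a gene of dividing cells, was lower in SAHA (-0.50, adjusted p = 1.656e-05) and in Smarcb1-RE (-1.09, adjusted p = 9.007e-09). These genes were picked after their values were seen.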
